A study of Mus musculus with 9 samples.

Results

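The 39 genes described here encode the enzymes and carriers of glycolysis and the pentose phosphate pathway, the kinases that gate pyruvate dehydrogenase, and the sensors and targets of the hypoxia-inducible factor (HIF). They were the rows whose symbol equalled one of 39 names, out of 50600 genes in the deposited tables, and 37 of the 39 had enough counts to be tested. The cultures were of RAW-Blue, a macrophage line of the mouse with a reporter gene for inflammatory signals. The None group was left without treatment, and the LPS group was given 1 µg/ml lipopolysaccharide, a bacterial outer membrane component that macrophages sense, for 24 h. Each group had 3 libraries, and nothing in the labels says whether these came from separate cultures, so p-values measure the spread between these libraries, which may be technical. A further group of 3 samples, given plant vesicles before LPS, was not analysed here. All cells were of 1 line, and no group without the reporter was used.

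Glycolysis splits glucose into pyruvate in the cytosol. Pyruvate is either reduced to lactate and exported, or enters mitochondria, where the pyruvate dehydrogenase complex turns it into acetyl-CoA unless a pyruvate dehydrogenase kinase has switched the complex off. The pentose phosphate pathway branches from glucose 6-phosphate and yields NADPH, which macrophages use to make reactive oxygen species and to renew glutathione. HIF-1 is a transcription factor whose alpha subunit is hydroxylated and degraded while oxygen is present. Macrophages given LPS are known to take up more glucose and to make more lactate, and HIF-1 is known to take part in that.

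Slc2a1, Ero1l, Bnip3 and Pdk1 are all known HIF-1 targets, and in these libraries Slc2a1 and Ero1l were higher with LPS while Bnip3 and Pdk1 were lower. The bases before their gene starts are shown to set that contrast beside the sequence letters that HIF-1 reads. The sequences are from RefSeq on GRCm38.p6 and are written 5′ to 3′ on the gene's strand, at chr4:119108495-119108713 (+) for Slc2a1, chr14:45318573-45318822 (-) for Ero1l, chr7:138909507-138909756 (-) for Bnip3 and chr2:71872974-71873223 (+) for Pdk1. Capitals mark the HIF core letters ACGTG and GCGTG on either strand, which on the opposite strand read CACGT and CACGC. The sequence of Slc2a1 stops at its last match, because the gene start in the deposited tables lies within that match, and the match at the end of Pdk1 runs on past the gene start.
Slc2a1: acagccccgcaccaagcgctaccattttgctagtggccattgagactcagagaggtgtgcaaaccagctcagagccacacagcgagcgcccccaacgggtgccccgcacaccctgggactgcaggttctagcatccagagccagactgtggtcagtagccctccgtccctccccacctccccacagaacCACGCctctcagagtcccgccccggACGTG
Ero1l: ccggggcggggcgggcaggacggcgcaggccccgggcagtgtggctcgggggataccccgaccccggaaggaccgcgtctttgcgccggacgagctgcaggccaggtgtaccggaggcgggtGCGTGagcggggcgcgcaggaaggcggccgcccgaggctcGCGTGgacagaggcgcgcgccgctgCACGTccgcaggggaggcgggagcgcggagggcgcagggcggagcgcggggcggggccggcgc
Bnip3: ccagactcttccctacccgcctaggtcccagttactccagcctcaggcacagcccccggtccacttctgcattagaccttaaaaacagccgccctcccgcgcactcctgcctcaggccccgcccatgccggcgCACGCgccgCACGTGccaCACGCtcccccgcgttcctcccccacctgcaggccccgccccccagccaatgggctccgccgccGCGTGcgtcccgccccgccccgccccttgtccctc
Pdk1: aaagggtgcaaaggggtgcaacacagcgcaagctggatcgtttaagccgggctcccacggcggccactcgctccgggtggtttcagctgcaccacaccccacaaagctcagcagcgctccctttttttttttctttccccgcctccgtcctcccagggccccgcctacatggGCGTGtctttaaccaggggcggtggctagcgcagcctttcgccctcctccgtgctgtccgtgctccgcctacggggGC

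In the window from 250 bases before to 50 bases after the gene start, Slc2a1 held 2 matches, Ero1l 3, Bnip3 5 and Pdk1 2. In Bnip3 the letters CACGTG were counted as an ACGTG match on each strand. These genes were picked for their directions of change, and each held at least 1 match. Slc2a1, Ero1l and Bnip3 held both ACGTG and GCGTG, and Pdk1 held GCGTG alone. Over the windows of all genes 19.6% held ACGTG and 32.4% held GCGTG. Whether the letters bear on the direction was not tested. All 39 members were found in the RefSeq promoter table, 33 of them (84.6%) with at least 1 match in any of their windows, against 46.7% of 27025 genes. Matches were present in 15 of the 17 members called higher, 9 of the 10 called lower and 8 of the 10 not called. The share over all genes is not the share over genes that these cells express. Of the 11916 tested genes 9052 (76.0%) had a window, under the 80% needed for a comparison, and 68.7% of those 9052 held a match. A match is a description of the letters and not a binding site.

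Libraries held 14650843 to 17665200 counts. None and LPS libraries lay apart on the first principal component (92.9% of the variance), while the second (2.71%) set LPS replicate 1 (16.2) apart from LPS replicates 2 and 3 (-4.79 and -11.7). LPS replicate 1 was also the highest LPS library for 26 of the 37 tested members and for 15 of the 17 called higher, so values without it are given for the members that changed at least 2-fold. Of 11 macrophage markers 10 averaged at least 1 TPM (transcript level per length), and their summed level was 11562 to 13268 TPM in the None libraries and 19301 to 21501 TPM in the LPS libraries. Lyz2, at 9714 and 16563 TPM, held most of that sum. Of the 10 tested markers Lyz2, Itgam, Fcgr1 and Cd14 rose, Csf1r and Ptprc fell, and Adgre1, Cd68, Spi1 and Aif1 did not pass. Markers of T cells, B cells, fibroblasts, endothelium, epithelium and neutrophils summed to at most 5.03 TPM per type in any library. Cd3e, Cd3d, Cd8a, Ms4a1, Col1a2, Col3a1, Epcam, Krt8, Ly6g and Mpo, which mark other cell types, had 0 counts. Since whole cultures were sequenced, fewer cells with a transcript and less of it per cell cannot be told apart.

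Of the 37 tested members 17 rose and 10 fell with LPS (edgeR quasi-likelihood test, Benjamini-Hochberg adjusted p under 0.05 over all 11916 tested genes). LPS changed much of the transcriptome: 69.1% of all tested genes were called, 34.0% higher and 35.1% lower, so the members' 73.0% was near the background. Their median log2 fold change was 0.18 against -0.03 over all genes, and the median size was 0.44 against 0.48. The pathway did not move as a block: 6 members rose at least 2-fold (Slc2a1, Hk1, Hk3, Eno2, Hif1a and Ero1l) and 2 fell at least 2-fold (Pdk1 and Pdk2), against 22.9% of all genes changed by that much in either direction. The split depended on the scaling of the libraries. Scaled to library totals alone, 11 members were higher and 15 lower (22.5% and 51.0% of all genes, 73.5% in either direction), and by limma on TPM 12 were higher and 13 lower (23.5% and 43.2% of all genes, 66.6% in either direction). Library totals moved the median fold change of all genes by -0.26 and TPM moved it by -0.20 on the log2 scale. Values on those scales are therefore given beside the small changes of members whose call they alter, and beside the small falls that they enlarge. Of the 17 members called higher 11, and of the 10 called lower 9, kept call and direction under every alternative run. Of the 10 members not called 0 kept both their side of the threshold and their direction under every one of them. The None and LPS libraries did not overlap for 29 of the 37 tested members, against 73.6% of all tested genes.

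**Figure D1:**
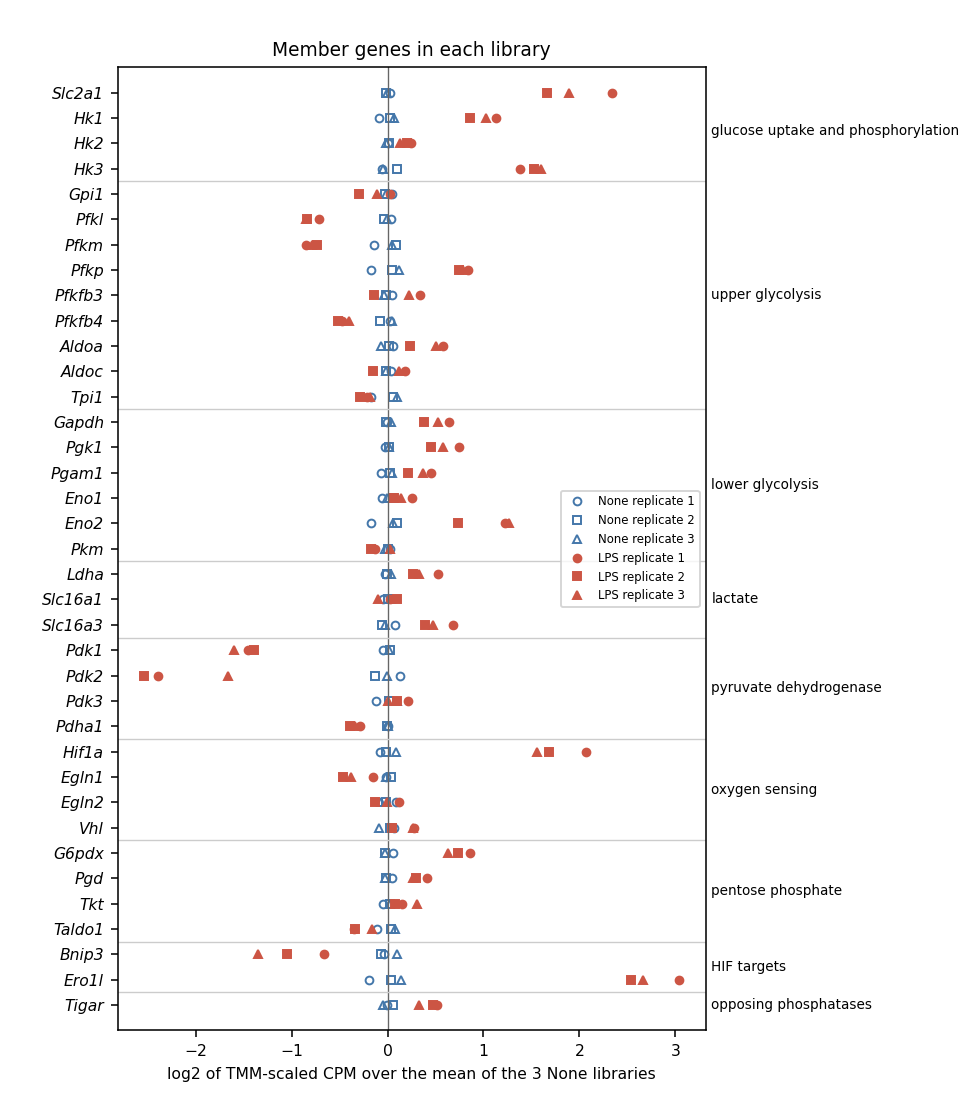
Log2 of each member's CPM (TMM-scaled) over the mean of the 3 None libraries (x axis), for the 37 tested members in pathway order (y axis). Open blue symbols are the None libraries and filled red symbols the LPS libraries. Ero1l, Slc2a1 and Hif1a lie farthest to the right, Pdk2 and Pdk1 farthest to the left, and many members lie near 0.

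At glucose entry all 4 members passed the test in the direction of higher levels with LPS, beside 34.0% of all tested genes. Hk2 passed by a margin that other scalings removed. On library totals and on TPM 3 of the 4 were called higher (22.5% and 23.5% of all genes). Slc2a1 encodes GLUT1, the facilitative glucose transporter of most cell types, and lies on chromosome 4 from 119108711 to 119137983 on the + strand (GRCm38, as are all positions here). Its level was 305, 295 and 297 CPM (counts scaled to library size by TMM) in the None libraries and 1516, 947 and 1109 CPM in the LPS libraries. No LPS library came near the None libraries, and LPS replicate 1 was the highest. The means were 299 ± 5.28 and 1191 ± 293 CPM (SD, n = 3 each), a 3.98-fold rise (log2 fold change 1.99 ± 0.14 SE, adjusted p = 8.79e-08). Without LPS replicate 1 the log2 fold change was 1.78 (adjusted p = 1.51e-09).

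Hexokinases trap glucose in the cell as glucose 6-phosphate, and the 3 isoforms differed in how far they moved. Hk1 (chromosome 10, 62269104 to 62379908, - strand), the isoform of most tissues, which binds mitochondria, was at 219, 237 and 246 CPM without treatment and at 512, 423 and 476 CPM with LPS. It rose 2.01-fold (log2 fold change 1.01 ± 0.09 SE, adjusted p = 5.43e-07), the log2 fold change was 0.94 without LPS replicate 1, and the groups did not overlap. Hk3 (chromosome 13, 55005985 to 55021385, - strand), an isoform of blood cells, was at 47.0, 52.1 and 47.4 CPM and then at 127, 141 and 148 CPM. It rose 2.83-fold (1.50 ± 0.08, adjusted p = 6.73e-09), with LPS replicate 1 the lowest of the LPS libraries (1.56 without it). Hk2, the isoform best known for being induced in growing and hypoxic cells, was at 152, 153 and 151 CPM and then at 179.7, 175 and 166 CPM. Its log2 fold change of 0.19 ± 0.07 SE passed the test (adjusted p = 0.0241), but was -0.07 on library totals and -0.01 on TPM, and neither passed (adjusted p = 0.366 and 0.899). The call was also lost without a filter on low counts and on leaving out any None library or LPS replicate 1, for which it was 0.16 (adjusted p = 0.0596).

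In shares of the family's summed TPM, which do not depend on how libraries are scaled, Hk2 went from 29.3% ± 0.401 to 17.8% ± 1.05 and Hk3 from 16.8% ± 0.728 to 25.5% ± 2.68 (SD, n = 3). For both, the groups did not overlap, and the exact two-sided permutation test gave p = 0.1, the smallest that 3 libraries against 3 allow. The share of Hk1 was 54.0% ± 0.464 and 56.7% ± 3.36, and the groups overlapped (exact permutation p = 0.4). The family's sum went from 139 ± 7.18 to 227 ± 4.93 TPM. Within it Hk1 averaged 75.1 and 129 TPM, Hk3 23.4 and 57.9 TPM, and Hk2 40.7 and 40.4 TPM.

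Phosphofructokinase, the committed step of glycolysis, showed its isoforms moving in opposite directions. Pfkl (chromosome 10, 77986947 to 78009807, - strand), named for liver, was at 379.7, 359.8 and 369 CPM without treatment and at 226, 206 and 205 CPM with LPS. It fell 1.74-fold (log2 fold change -0.80 ± 0.07 SE, adjusted p = 9.08e-07), and the groups were far apart. Pfkm (chromosome 15, 98092589 to 98132447, + strand), named for muscle, was at 36.8, 43.0 and 42.0 CPM and then at 22.4, 24.4 and 23.4 CPM. It fell 1.73-fold (-0.79 ± 0.09, adjusted p = 7.38e-06). Pfkp (chromosome 13, 6579768 to 6648777, - strand), named for platelets, was at 253, 295 and 309 CPM and then at 509.8, 479 and 493 CPM. It rose 1.73-fold (0.79 ± 0.09, adjusted p = 4.3e-06), and still rose on library totals (0.53) and TPM (0.51).

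As shares of the phosphofructokinase TPM, Pfkl went from 51.9% ± 3.08 to 28.8% ± 0.841, Pfkm from 7.12% ± 0.331 to 4.06% ± 0.322 and Pfkp from 40.9% ± 2.80 to 67.2% ± 0.837 (SD, n = 3). Pfkl was the larger share in every None library and Pfkp in every LPS library (exact two-sided permutation p = 0.1 for each isoform, the smallest possible). The summed level of the family was 266 ± 11.2 TPM without treatment and 232 ± 8.53 TPM with LPS. The isoforms thus changed places while their sum moved little by comparison. Pfkm overlaps Senp1 on the opposite strand (15.9 and 10.8 TPM) and Pfkp overlaps Pitrm1 (17.3 and 13.6 TPM). No source used here says whether the counting used strand, so reads from stretches that overlapping transcripts share cannot be told apart. Of the 100-base stretches of Pfkp transcripts 4.66% also occur in Pitrm1. Those of Pfkm were shared with the antisense gene Gm26513 alone (7.43%, listed at 0.113 and 0.127 TPM), and not with Senp1.

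**Figure D2:**
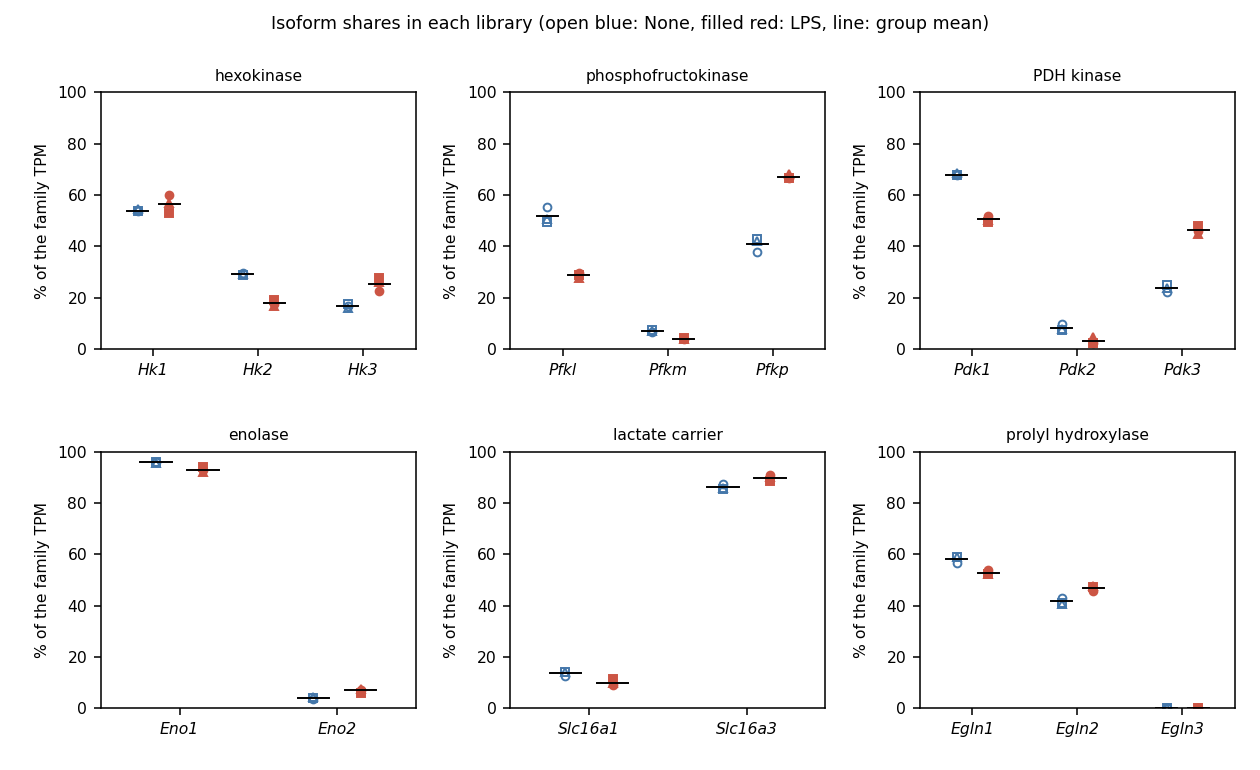
Share of each isoform in the summed TPM of its family (y axis, percent) for 6 families, with a point for each of the 3 None and 3 LPS libraries. Pfkl and Pfkp change places, and the share of Hk2 falls while that of Hk3 rises. The level of Hk2 itself was 40.7 TPM without treatment and 40.4 TPM with LPS. The share of Pdk3 in the pyruvate dehydrogenase kinases goes from 23.7% to 46.2%.

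The bifunctional enzymes that set fructose 2,6-bisphosphate, an activator of phosphofructokinase, did not rise. Pfkfb3, known as the strongly kinase-active form that inflammatory signals induce, was at 125, 119.9 and 119 CPM and then at 153, 109.8 and 141 CPM. The groups overlapped because of LPS replicate 2, and the log2 fold change of 0.15 ± 0.10 SE did not pass (adjusted p = 0.208). Without LPS replicate 2 it was 0.29 and passed (adjusted p = 0.00656), and on library totals it was -0.11. Pfkfb4, a HIF-responsive relative, fell from 27.4 ± 1.24 to 19.9 ± 0.848 CPM (-0.46 ± 0.09, adjusted p = 0.00049), and its log2 fold change was -0.72 on library totals. Of the related genes read beside the members, Pfkfb2 fell from 19.1 ± 1.15 to 7.41 ± 0.561 CPM (-1.36 ± 0.11, adjusted p = 3.76e-07).

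The other enzymes of upper glycolysis changed by less than Pfkl and Pfkp with TMM scaling, and their calls depended on the scaling. Gpi1, glucose 6-phosphate isomerase, was at 2397, 2276 and 2290.4 CPM and then at 2362, 1887 and 2148 CPM, with overlapping groups (-0.12 ± 0.09, adjusted p = 0.247). Its log2 fold change was -0.38 on library totals and -0.34 on TPM, and both passed. Tpi1, triose phosphate isomerase, had a log2 fold change of -0.23 ± 0.09 SE (adjusted p = 0.0341). That call was lost with RLE size factors (-0.21, adjusted p = 0.0527) and on leaving out None replicate 2 (-0.20), None replicate 3 (-0.18) or LPS replicate 2 (-0.19). On library totals the fall was larger (-0.49, adjusted p = 0.00022), as it was on TPM (-0.46, adjusted p = 0.00124). Aldoa, the main aldolase, rose from 3946 ± 165 to 5374 ± 650 CPM (0.45 ± 0.10, adjusted p = 0.00129), but its rise was 0.18 on library totals and 0.21 on TPM and passed in neither. Aldoc, a minor aldolase in these cells, did not pass (0.06 ± 0.09, adjusted p = 0.568), but passed as lower on library totals (-0.20, adjusted p = 0.0366).

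In lower glycolysis, where ATP and NADH are made, 4 of 6 members rose, beside 34.0% of all tested genes. Counted in either direction, 66.7% of the 6 were called, near the 69.1% of all tested genes. On library totals 3 rose and 1 fell. Gapdh (chromosome 6, 125161853 to 125166467, - strand), often used as a reference gene, was at 3355, 3332 and 3451 CPM without treatment and at 5280.01, 4389 and 4859 CPM with LPS. It rose 1.43-fold (log2 fold change 0.52 ± 0.09 SE, adjusted p = 0.000168), and also on library totals (0.26) and TPM (0.38). Pgk1, phosphoglycerate kinase, was at 3391, 3491 and 3478 CPM and then at 5806, 4728 and 5164 CPM. It rose 1.52-fold (0.60 ± 0.09, adjusted p = 6.71e-05), and by 0.34 on library totals. For both genes every LPS library lay above every None library, and LPS replicate 1 was the highest. Pgam1, phosphoglycerate mutase, had a log2 fold change of 0.35 ± 0.08 SE (adjusted p = 0.00278) that was lost on library totals (0.09) and TPM (0.12).

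Enolase again differed by isoform. Eno2 (chromosome 6, 124760055 to 124769673, - strand), best known from neurons, was at 79.3, 95.7 and 92.9 CPM without treatment and at 208, 148 and 215 CPM with LPS. It rose 2.13-fold (log2 fold change 1.09 ± 0.13 SE, adjusted p = 7.88e-06), the log2 fold change was 1.02 without LPS replicate 1, and LPS replicate 2 was the lowest of the LPS libraries but above all None libraries. Eno1, the main form, was at 1992, 2152 and 2068 CPM and then at 2469, 2165 and 2287 CPM (0.16 ± 0.08, adjusted p = 0.104). It passed with DESeq2 (0.18, adjusted p = 0.0314) and without LPS replicate 2 (0.21, adjusted p = 0.0358). The share of Eno2 in the summed TPM of both went from 4.12% ± 0.327 to 7.01% ± 0.860 (exact permutation p = 0.1). That sum leaves out the Eno1 copies Eno1b (678 and 634 TPM) and Gm4735 (1120 and 1097 TPM), so the size of the share is uncertain. Eno1b, a copy of Eno1, did not pass (0.13 ± 0.08, adjusted p = 0.153). Eno3, the muscle form, which is not a member, fell from 75.9 ± 2.97 to 27.5 ± 1.39 CPM (-1.46 ± 0.08, adjusted p = 5.7e-09).

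Pkm, pyruvate kinase of non-liver tissues, was at 8656, 8531 and 8384 CPM and then at 7796, 7556 and 8699 CPM. LPS replicate 3 lay above the None libraries and the other LPS libraries below them, and the log2 fold change of -0.09 ± 0.08 SE did not pass (adjusted p = 0.365). On library totals it was -0.35 and on TPM -0.31, and both passed. The tables count genes and not transcripts, so the M1 and M2 splice forms of Pkm were not told apart.

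Several of these abundant transcripts share sequence with copies elsewhere in the genome. Of the 100-base stretches in GENCODE M21 transcripts, 51.7% of those of Pgk1, 33.9% of Pgam1, 20.9% of Gapdh and 20.4% of Eno1 also occur in other genes. Copies held 46.2% of the summed counts of Eno1 and its 2 copies in the None libraries and 46.3% in the LPS libraries. For Gapdh and 17 copies the share was 36.1% and 35.8%. With the counts of these copies added to the member, an alternative chosen after the data were seen, all 37 tested members kept call and direction. The levels of these genes are uncertain, since the counting could have divided their reads among the copies.

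**Figure D3:**
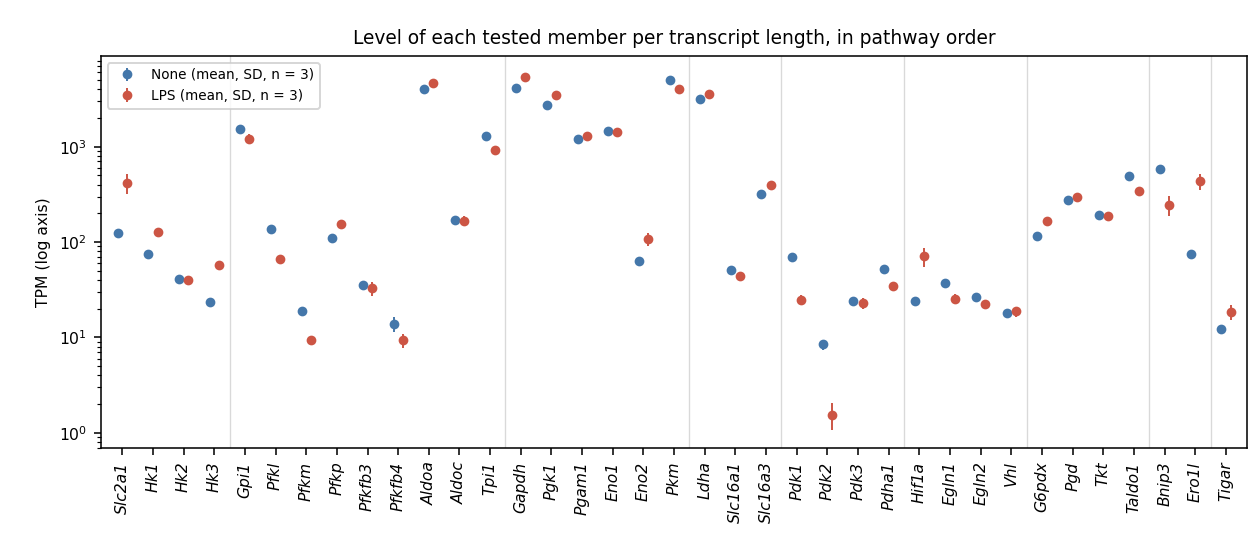
Level of each tested member in TPM (y axis, log scale), in pathway order along the x axis, as the mean of the 3 None (blue) and 3 LPS (red) libraries with SD bars. As listed, without near-identical copies such as those of Eno1 and Gapdh, Pkm, Gapdh, Aldoa, Ldha and Pgk1 stand highest in both groups. Pdk2 is the lowest, at 8.45 TPM and 1.55 TPM.

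Per transcript length, the highest listed level of a member without treatment was that of Pkm at 4960 ± 153 TPM (SD, n = 3), followed by Gapdh at 4101 ± 69.2, Aldoa at 4007 ± 232, Ldha at 3200 ± 48.2 and Pgk1 at 2713 ± 58.5 TPM. Gapdh and Aldoa did not differ beyond their spread. With LPS the order was Gapdh at 5353 ± 455, Aldoa at 4659 ± 493 and Pkm at 3988 ± 170 TPM. Gapdh was listed above Aldoa in each LPS library, at 5834, 4928 and 5296 TPM against 5116.5, 4136 and 4725.5 TPM. Ldha at 3566 ± 360 and Pgk1 at 3521 ± 355 TPM came next and lay within their spread. The place of Gapdh is uncertain, since its copies Gm13394 and Gm7336 were listed at 2548 and 481 TPM without treatment and at 3037 and 604 TPM with LPS, and reads could have been divided among them. The same holds for Eno1, listed at 1477 and 1415 TPM. Its copies Eno1b and Gm4735 were listed at 678 and 1120 TPM without treatment and at 634 and 1097 TPM with LPS. Which members stand highest is therefore uncertain. All members together held 2.73% to 2.80% of the TPM of the None libraries and 2.75% to 3.20% of the LPS libraries, and the groups overlapped.

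At the lactate step, Ldha (chromosome 7, 46845839 to 46855627, + strand), the subunit of lactate dehydrogenase that favours lactate, was at 3322, 3377 and 3466 CPM without treatment and at 4883, 4069.6 and 4249.5 CPM with LPS. The groups did not overlap and the rise passed (log2 fold change 0.38 ± 0.09 SE, adjusted p = 0.00199). The rise was 0.12 on library totals (adjusted p = 0.189) and 0.15 on TPM (adjusted p = 0.158). Slc16a3, the MCT4 carrier that exports lactate from highly glycolytic cells, was at 430.1, 392 and 401 CPM and then at 654, 535 and 567 CPM. It rose 1.44-fold (0.52 ± 0.09, adjusted p = 0.000176) and still rose on library totals (0.26). Slc16a1, the MCT1 carrier, averaged 172 ± 4.85 and 174 ± 11.8 CPM and did not pass (0.01 ± 0.07, adjusted p = 0.89), and on library totals it was lower (-0.25, adjusted p = 0.0132). MCT4 was already the main carrier of the pair, with 86.3% ± 0.866 of their TPM without treatment and 89.9% ± 1.20 with LPS (exact permutation p = 0.1).

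Of the kinases that shut pyruvate out of the mitochondrial route, Pdk1 and Pdk2 fell and Pdk3 did not pass. Pdk1 (chromosome 2, 71873224 to 71903858, + strand), a known HIF-1 target, was at 231, 242 and 241 CPM without treatment and at 86.9, 90.8 and 78.5 CPM with LPS. It fell 2.79-fold (log2 fold change -1.48 ± 0.08 SE, adjusted p = 4.93e-09). Pdk2 (chromosome 11, 95026258 to 95041354, - strand), a widely expressed form, was at 14.3, 11.9 and 13.0 CPM and then at 2.49, 2.25 and 4.11 CPM. It fell 4.42-fold (-2.14 ± 0.19, adjusted p = 8.09e-07), and for both genes the groups were far apart. Without LPS replicate 1 the log2 fold changes were -1.49 for Pdk1 and -2.03 for Pdk2. Pdk3 was at 32.7, 35.9 and 37.8 CPM and then at 41.0, 38.0 and 35.6 CPM, with overlapping groups (0.11 ± 0.09, adjusted p = 0.31).

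The summed TPM of the 3 kinases went from 102 ± 4.48 to 49.3 ± 5.66 (SD, n = 3). With the other kinases lower, Pdk3 went from 22.3% to 24.9% of that sum to 44.9% to 47.9% and Pdk1 from 68.0% ± 0.454 to 50.5% ± 1.08 (exact two-sided permutation p = 0.1 for both, the smallest possible). Pdha1, the subunit of pyruvate dehydrogenase that these kinases phosphorylate, fell as well, from 107 ± 0.539 to 84.8 ± 3.03 CPM (-0.34 ± 0.07, adjusted p = 0.000514), with -0.60 on library totals and -0.56 on TPM. The phosphatases that undo the phosphorylation did not pass, with log2 fold changes of -0.13 ± 0.09 SE for Pdp1 (adjusted p = 0.246) and 0.20 ± 0.10 for Pdp2 (adjusted p = 0.0926). Pdp1 passed as lower on library totals (-0.39, adjusted p = 0.00305), and Pdp2 as higher without LPS replicate 1 (0.29, adjusted p = 0.016). Pdpr, the regulatory subunit that restrains the phosphatase, fell from 31.6 ± 1.44 to 12.5 ± 1.27 CPM (-1.33 ± 0.10, adjusted p = 1.64e-07). Dlat, the acetyltransferase core of the complex, rose from 65.1 ± 3.30 to 113 ± 3.90 CPM (0.79 ± 0.07, adjusted p = 7.09e-07). Dld, the shared dehydrogenase subunit, rose (0.46 ± 0.07). The carrier subunits that bring pyruvate into mitochondria passed by a small margin (0.20 ± 0.08 for Mpc1 and 0.23 ± 0.07 for Mpc2), with opposite signs on library totals (-0.06 and -0.03). The call of Mpc1 was also lost with the replicate number as a block (adjusted p = 0.0509), with DESeq2 (adjusted p = 0.0507), without a filter (adjusted p = 0.096) and on leaving out any library but LPS replicate 3, and that of Mpc2 on TPM (0.03) and on leaving out None replicate 2 or 3. Of 11 genes listed for pyruvate entry 10 were tested, of which 4 rose and 1 fell, and on library totals 2 rose and 3 fell.

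Among the members of oxygen sensing, the transcript of the HIF-1 alpha subunit rose. Hif1a (chromosome 12, 73901375 to 73947530, + strand) was at 77.2, 80.3 and 86.8 CPM without treatment and at 342, 261 and 239 CPM with LPS. The lowest LPS library stood far above the highest None library. The rise was 3.45-fold (log2 fold change 1.79 ± 0.12 SE, adjusted p = 5.23e-08), and without LPS replicate 1 the log2 fold change was 1.62. Egln1, the main prolyl hydroxylase that marks HIF-1 alpha for degradation, was at 100.3, 104 and 100.5 CPM and then at 91.5, 73.5 and 78.0 CPM. It fell (-0.33 ± 0.08, adjusted p = 0.00387), and LPS replicate 1 was the library nearest to the None group. Its log2 fold change was -0.59 on library totals and -0.54 on TPM. Egln2 averaged 39.5 ± 2.26 and 39.4 ± 3.41 CPM and did not pass (adjusted p = 0.981), but on library totals (-0.26, adjusted p = 0.0144) and on TPM (-0.23, adjusted p = 0.0456) it passed as lower.

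Egln3, the prolyl hydroxylase best known as a hypoxia-induced gene, had 1 count in the None libraries together and 7 in the LPS libraries and was not tested. Vhl, the ubiquitin ligase subunit that binds hydroxylated HIF-1 alpha, had a log2 fold change of 0.20 ± 0.09 SE (adjusted p = 0.0613). It passed with RLE size factors (0.22, adjusted p = 0.0422) and without LPS replicate 2 (0.28, adjusted p = 0.0135), and was -0.06 on library totals. Of 13 further genes of the HIF machinery 10 were tested, of which 5 rose and 3 fell (2 and 4 on library totals). Arnt, the beta subunit with which HIF-1 alpha pairs, rose from 65.7 ± 3.10 to 87.4 ± 3.52 CPM (0.41 ± 0.07, adjusted p = 0.000206), a call that was lost on library totals (0.15). Hif1an, the asparagine hydroxylase that limits HIF activity, fell from 39.3 ± 3.07 to 30.0 ± 0.470 CPM (-0.39 ± 0.09, adjusted p = 0.00148). Siah2, a ligase that degrades prolyl hydroxylases, rose (0.95 ± 0.13), as did Elob (0.54 ± 0.08), a partner of Vhl. The coactivator genes Crebbp (-0.64 ± 0.09) and Ep300 (-0.51 ± 0.08) fell, and Epas1, which encodes HIF-2 alpha, was listed at 0 in all 6 libraries.

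The 2 members grouped here as HIF targets, Ero1l and Bnip3, went in opposite directions. HIF-responsive members that belong to a pathway step, such as Slc2a1, Pdk1 and Pfkfb4, are given under that step. These genes therefore do not show how HIF targets among the members were divided. Ero1l (current symbol Ero1a, chromosome 14, 45283087 to 45318572, - strand) encodes an oxidase that forms disulfide bonds in the endoplasmic reticulum. Its level was 221, 259 and 279.6 CPM without treatment and 2079, 1476 and 1607 CPM with LPS. This was the member that changed most, a 6.80-fold rise (log2 fold change 2.76 ± 0.13 SE, adjusted p = 2.79e-09), and without LPS replicate 1 it was 2.61. Bnip3 (chromosome 7, 138890836 to 138909506, - strand), a mitophagy receptor, was at 575, 563 and 629.8 CPM and then at 371, 285 and 231 CPM. It fell 1.99-fold (-0.99 ± 0.14, adjusted p = 3.23e-05), with LPS replicate 1 again the highest LPS library, and the log2 fold change was -1.19 without it. Of the 100-base stretches of Bnip3 24.6% also occur in other genes, and the antisense gene Gm45507 overlaps it (2.29 and 0.887 TPM).

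**Figure D4:**
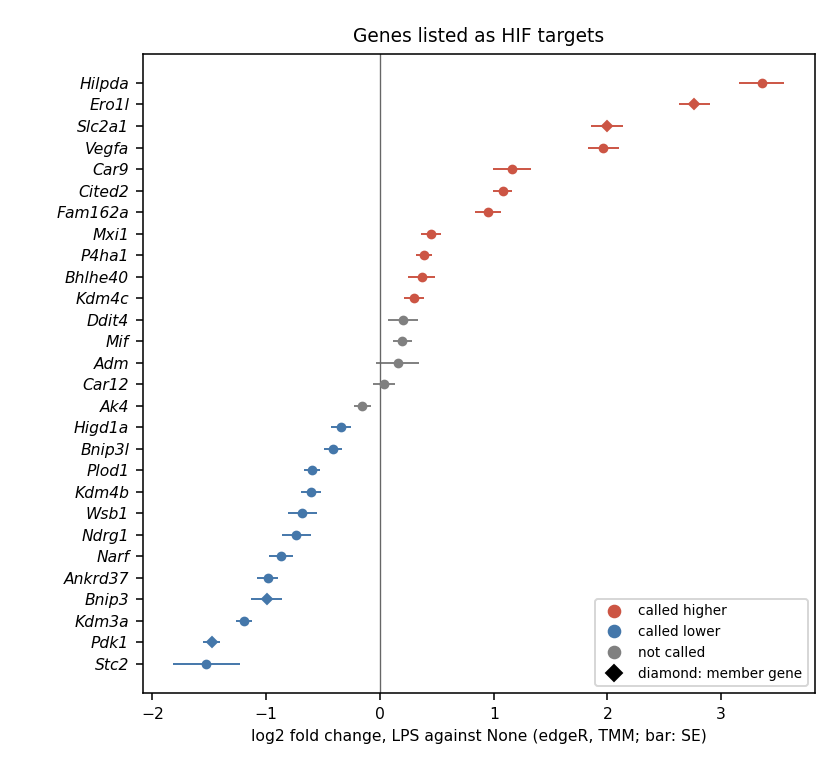
Log2 fold change of LPS over None (x axis, with SE bars) for the 24 tested related genes listed as HIF targets (y axis, circles). Diamonds are the members Bnip3, Ero1l, Slc2a1 and Pdk1, which were picked for display. Other members, such as the HIF-responsive Pfkfb4, are not shown, so the diamonds do not give the balance of HIF targets among the members. Red marks genes called higher, blue genes called lower and grey genes not called. Hilpda is the farthest to the right at 3.36, and Bnip3, Kdm3a and Pdk1 lie on the left.

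Other genes listed as HIF targets were divided as well. Of 29 such genes 24 were tested: 9 rose, 10 fell and 5 did not pass (5 rose and 11 fell on library totals). All tested genes were divided too, with 34.0% higher and 35.1% lower. Counted in either direction, 79.2% of the 24 were called, beside 69.1% of all tested genes. Hilpda, a lipid droplet protein, rose 10.2-fold from 11.8 ± 0.987 to 121 ± 40.7 CPM (log2 fold change 3.36 ± 0.20 SE, adjusted p = 1.79e-08). Vegfa, the endothelial growth factor, rose 3.90-fold from 61.5 ± 7.79 to 240 ± 51.7 CPM (1.96 ± 0.14, adjusted p = 9.55e-08). Kdm3a, a histone demethylase, fell 2.28-fold from 85.1 ± 1.05 to 37.2 ± 1.78 CPM (-1.19 ± 0.07, adjusted p = 1.91e-08). Car9, a carbonic anhydrase often used as a hypoxia marker, rose 2.24-fold but was low, at 4.04 ± 0.893 and 9.07 ± 0.463 CPM (1.16 ± 0.17, adjusted p = 4.96e-05). Cited2, which competes with HIF for the coactivators CBP and p300, rose 2.11-fold from 470 ± 18.1 to 992 ± 80.4 CPM (1.08 ± 0.08, adjusted p = 1.72e-07).

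In the pentose phosphate pathway both members of the oxidative arm, which makes NADPH, were called higher, beside 34.0% of all tested genes. Pgd was called by a margin that other scalings removed. G6pdx (chromosome X, 74409483 to 74429194, - strand), glucose 6-phosphate dehydrogenase, which commits glucose to the pathway, was at 226, 214 and 213 CPM without treatment and at 395, 361 and 338 CPM with LPS. It rose 1.67-fold (log2 fold change 0.74 ± 0.08 SE, adjusted p = 3.3e-06), and by 0.48 on library totals, with no overlap between groups. The whole span of G6pdx lies opposite Ikbkg, an NF-kappaB pathway gene. The listed level of Ikbkg was 17.3 and 24.8 TPM against 115 and 165 TPM for G6pdx. Of the 100-base stretches of G6pdx transcripts 7.34% also occur in Ikbkg, and reads from these cannot be told apart if strand was not used. Pgd, the dehydrogenase that follows it, rose from 431 ± 12.7 to 541 ± 28.1 CPM (0.33 ± 0.07, adjusted p = 0.00171), a call lost on library totals (0.07) and TPM (0.10).

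In the non-oxidative arm, which returns pentoses to glycolysis, Taldo1, transaldolase, fell from 382 ± 26.0 to 313 ± 23.9 CPM (-0.28 ± 0.08, adjusted p = 0.00857), and its log2 fold change was -0.54 on library totals and -0.51 on TPM. Tkt, transketolase, averaged 458 ± 13.4 and 519 ± 43.8 CPM and did not pass (0.18 ± 0.08, adjusted p = 0.0614). It passed with DESeq2 (0.20, adjusted p = 0.0181) and without LPS replicate 2 (0.24, adjusted p = 0.0223), and was -0.08 on library totals. Of 10 further genes of the pathway 8 were tested, of which 2 rose and 3 fell (1 and 5 on library totals). With TMM scaling 62.5% of the 8 were called, beside 69.1% of all tested genes. Rpe, the epimerase, rose from 48.3 ± 0.941 to 80.2 ± 5.38 CPM (0.73 ± 0.07, adjusted p = 2.2e-06). Shpk, sedoheptulokinase, which is known to restrain inflammatory activation of macrophages, fell from 5.38 ± 0.726 to 3.21 ± 0.778 CPM (-0.74 ± 0.20, adjusted p = 0.00535). Rpia, the isomerase, had a log2 fold change of 0.22 ± 0.08 SE (adjusted p = 0.0247) that was -0.04 on library totals and did not pass there. Prps2, which makes phosphoribosyl pyrophosphate from the pathway's ribose 5-phosphate, fell (-0.58 ± 0.07).

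Enzymes that oppose the glycolytic flow differed in level and in direction. Fbp1, fructose 1,6-bisphosphatase, had 4 counts, all in None replicate 2, and 0 counts in the LPS libraries, and was not tested. Tigar, a phosphatase that lowers fructose 2,6-bisphosphate, was at 24.5, 25.4 and 23.6 CPM and then at 35.0, 34.0 and 30.7 CPM. It rose (0.44 ± 0.09, adjusted p = 0.00072), but not on library totals (0.18, adjusted p = 0.0962). Of 8 genes of gluconeogenesis and glucose 6-phosphate hydrolysis 5 were tested, of which 2 rose and 2 fell. Pck2, the mitochondrial phosphoenolpyruvate carboxykinase, rose 3.05-fold from 34.6 ± 4.39 to 105 ± 14.8 CPM (1.61 ± 0.11, adjusted p = 9.36e-08). Slc37a4, the glucose 6-phosphate carrier of the endoplasmic reticulum, fell from 49.9 ± 1.88 to 21.3 ± 0.931 CPM (-1.23 ± 0.08, adjusted p = 6.26e-08). G6pc3, the glucose 6-phosphatase of most tissues, had a log2 fold change of 0.37 ± 0.09 SE that was lost on library totals (0.11), and Slc37a2, a related carrier, one of -0.27 ± 0.07 that was lost on TPM (-0.07).

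Other genes of glycolysis, of which 12 of 20 were tested, were split as well: 4 rose and 5 fell, and on library totals 0 rose and 7 fell. With TMM scaling 75.0% of the 12 were called, beside 69.1% of all tested genes. Slc2a6, a further glucose transporter family member, fell from 127 ± 22.1 to 42.8 ± 3.52 CPM (-1.57 ± 0.12, adjusted p = 1.36e-07). Slc2a3, which encodes GLUT3, had a log2 fold change of 0.35 ± 0.09 SE (adjusted p = 0.00452) that was lost on library totals (0.09). Bpgm, which diverts 1,3-bisphosphoglycerate, fell (-0.83 ± 0.12). Of 13 glycogen genes 8 were tested, of which 4 rose and 3 fell (87.5% called, beside 69.1% of all tested genes). Ugp2, which makes UDP-glucose for glycogen synthesis, rose from 56.3 ± 3.79 to 108 ± 10.3 CPM (0.94 ± 0.08), and Pgm2 (0.92 ± 0.08) and Pgm1 (0.52 ± 0.10) rose with it. Pygb, a glycogen phosphorylase, fell (-0.70 ± 0.08), as did Gyg, the glycogenin primer (-0.40 ± 0.07). Over the 7 lists 77 of 104 genes were tested, of which 30 rose and 27 fell. These 74.0% were near the background of 69.1%.

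**Figure D5:**
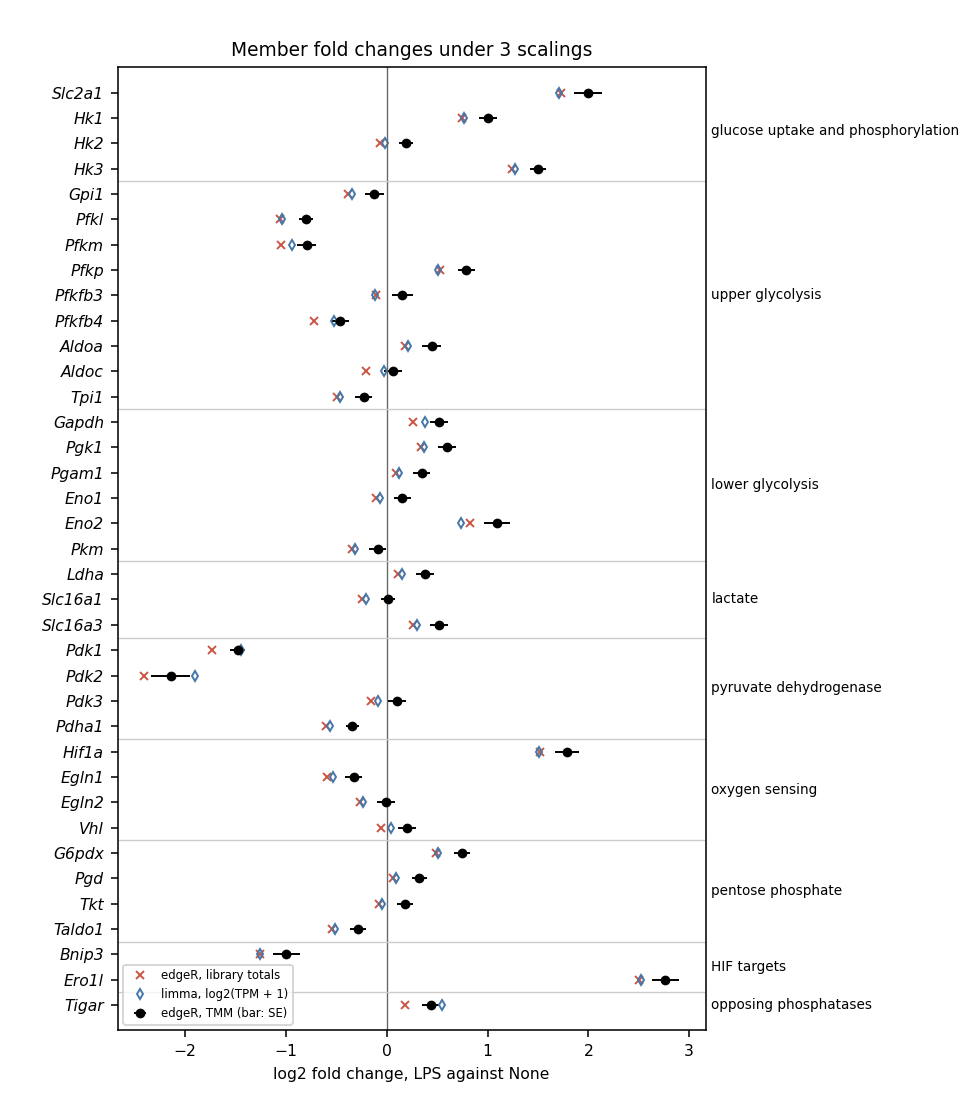
Log2 fold change of LPS over None for the 37 tested members (x axis) by edgeR with TMM scaling (black, with SE bars), by edgeR with library totals (red crosses) and by limma on log2(TPM + 1) (blue diamonds). Library totals place every member lower than TMM does. The large changes, such as Ero1l, Slc2a1, Hif1a, Hk3, Pdk1 and Pdk2, keep their side of 0 under all 3, and members near 0 such as Hk2, Eno1 and Tkt do not.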

How the data were processed

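RNA of RAW-Blue cells was sequenced as paired reads of 100 bases after quality filtering with SOAPnuke, per the labels' protocols. Alignment and counting used STAR 2.7.10a and RSEM 1.3.1 with build GRCm38, as far as the submitters' processing notes tell. Per the file headers the deposited tables hold expected counts, which are estimates that divide shared reads between genes, and TPM, which the authors scaled for transcript length and library. The labels name 9 samples in 3 groups. Per file, 6 library columns matched the None and LPS labels, and the 12 library columns that matched no label were not used, so the vesicle group was not analysed here.

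Expected counts were rounded. Libraries held 14650843 to 17665200 counts, with at most 0.0318% in genes without a symbol. Genes passing filterByExpr (count minimum 10, total 15) were tested with edgeR 4.0.16 in R 4.3.3, by TMM scaling and a two-sided quasi-likelihood test with group as the single term, with Benjamini-Hochberg adjustment over 11916 genes at a threshold of 0.05. Genes varied between libraries of a group by 8.32% (biological coefficient of variation). CPM are TMM-scaled, SDs are over 3 libraries, and the SE is the fold change's size over the root of F. Other fits used library totals, RLE size factors, DESeq2 1.42.0, and limma 3.58.1 on log2(TPM + 1). The fit was tested on simulated data in which 200 genes were changed, against 8232 called here. That test therefore does not bear on how the scaling divides the calls. Isoform shares of TPM were compared by exact two-sided permutation. HIF core letters were searched on both strands of RefSeq windows of 300 bases.

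The members and the 7 lists of related genes were chosen with earlier results of these data known. From these lists 1 gene and 1 cell type marker are not reported here. Values per library are given for members called with a log2 fold change of at least 1 in size, for families whose isoforms were called in opposite directions, and for Hif1a, Gapdh and Ldha, and from each list up to 5 called genes with the largest changes and the genes that limit a member's step are named. Other members were given per library after their values were seen. Same-numbered None and LPS libraries deviated together with correlations of 0.156, 0.0377 and 0.0047, so they were not taken as pairs.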

Additional observations from a re-analysis of the deposited data

How the results depend on the processing

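Most calls did not depend on the processing: 11 of the 17 members called higher and 9 of the 10 called lower kept call and direction under 16 alternatives. The exceptions among these 27 were Hk2, Aldoa, Pgam1, Ldha, Pgd, Tigar and Tpi1. The members that changed at least 2-fold (Slc2a1, Hk1, Hk3, Eno2, Hif1a, Ero1l, Pdk1 and Pdk2) all kept both. Of the 10 members not called, each changed call or direction under at least 1 alternative: Gpi1, Pkm, Egln2, Aldoc and Slc16a1 were called lower on library totals, Eno1, Tkt, Vhl and Pfkfb3 were called higher without LPS replicate 2, and Pdk3 changed direction only. No isoform share changed direction. Library totals gave 11 members higher, 14 genes of the related lists higher and 2679 of all genes higher, against 17, 30 and 4052 with TMM, and limma on TPM gave 17, 17 and 16 genes of the related lists higher with a pseudocount of 1, of 0.1 and without a filter. The cause was not tested. Leaving out 1 library gave 16 to 21 members higher and 9 or 10 lower, 25 to 32 genes of the related lists higher and 26 to 29 lower, and 3722 to 4004 of all genes higher and 3785 to 4099 lower.

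With the replicate block 17 members were higher and 10 lower, and 4114 and 4248 of all genes, against 4052 and 4180 without it. Among the members and the related genes named, the block ended the call of Mpc1 (adjusted p = 0.0509) and no other. Of the 6 libraries 2 correlated best with their own number.

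The log2 fold changes that turned direction were all small. On library totals they were -0.070 for Hk2, -0.11 for Pfkfb3, -0.20 for Aldoc, -0.10 for Eno1, -0.25 for Slc16a1, -0.15 for Pdk3, -0.061 for Vhl, -0.080 for Tkt, -0.13 for Eno1b, -0.056 for Mpc1, -0.028 for Mpc2, -0.058 for Pdp2 and -0.036 for Rpia. By limma on log2(TPM + 1), with and without the filter, they were -0.012 for Hk2, -0.11 for Pfkfb3, -0.023 for Aldoc, -0.063 for Eno1, -0.21 for Slc16a1, -0.088 for Pdk3, -0.048 for Tkt, -0.097 for Eno1b, -0.057 for Mpc1, -0.022 for Pdp2 and -0.0087 for Rpia. With a pseudocount of 0.1 they were -0.012 for Hk2, -0.12 for Pfkfb3, -0.023 for Aldoc, -0.063 for Eno1, -0.21 for Slc16a1, -0.092 for Pdk3, -0.049 for Tkt, -0.097 for Eno1b, -0.058 for Mpc1, -0.027 for Pdp2 and -0.0090 for Rpia. Egln2 was 0.020 with RLE size factors and with DESeq2, and between -0.068 and 0.066 with 1 library left out. Slc16a1 was -0.00040 without a filter and between -0.026 and 0.071 with 1 library left out, and Aldoc was between -0.0094 and 0.16. The cause was not tested.

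Egln3 and Fbp1, with 8 and 4 counts in all, were too low to test at this depth. Strand, transcript forms and protein or metabolite levels were not measured here.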
